A study of Mus musculus with 21 samples.

Results

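All liver tumours of the series were compared with all livers, to find transcripts that stood apart from liver in every tumour whichever of the 2 tumour models it came from. Members were the genes for which all 10 tumour mice lay above, or all 10 below, all 8 livers. Of 23328 genes with a value in all 18 mice, 758 lay above (3.25%) and 1402 below (6.01%). The comparison used every array of the series, 13 from tumours and 8 from livers, and levels are log2 processed signal minus the 75th percentile of the array. The lowered genes were 64.9% of the separated ones, and with normexp background correction before the same scaling 163 against 241 raised ones (40.4%), a setting in which the median change of all genes was -0.21 against -0.07. In that setting, called normexp before the 75th percentile below, 213 of the 758 and 151 of the 1402 members stayed separated. DEN tumours were 7 hepatocellular carcinomas from 5 mice with wild-type Trp53, given N-nitrosodiethylamine (DEN), a liver carcinogen, at 10 µg per g body weight on day 15. KO tumours were 6 tumours from 5 untreated Trp53 ko mice, under a joint label of hepatocellular and cholangiocellular carcinoma (HCC/CCC). Livers came from 4 untreated Trp53 wt mice (WT livers) and 4 untreated Trp53 ko mice (KO livers), 1 array each. All groups had the C57BL/6J background. Age and sex, the cells in which Trp53 was deleted, and whether livers and tumours shared animals were not stated in the sources. Tumours with the same number before T in their title were averaged as 1 mouse, and p-values measure the spread between these samples.

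Hepatocytes make plasma proteins, bile acids and glucose, burn fatty acids, dispose of ammonia and oxidise drugs through cytochromes P450. These tasks are divided along the liver lobule, and those around the central vein depend on Wnt signalling. Liver tumours often lose such functions while they regain fetal transcripts, divide and change their surface proteins, and cholangiocellular carcinoma resembles bile duct epithelium.

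Several features of the arrays moved with the groups. Each slide carried arrays of a single group, and no other group was scanned on the day of the WT livers, so that every comparison of groups is also one of slides. The 3 arrays of KO tumour mice 4 and 5 shared the brightest slide, with 75th percentiles of 2045 to 4258 intensity units against 476 to 1357 on the other 18 arrays. More probes were well above background on tumour arrays (54.9 to 82.5%) than on most liver arrays (51.2 to 63.5%). KO tumour mice 1 and 2 had 0 of 5 Y-linked probes above background, whereas the other 16 mice each had at least 2. WT liver 4 stood apart from the other livers in dividing-cell and B cell genes, with mean levels of -2.57 over the mitosis list and -0.43 over the B and plasma cell list, against -3.98 to -3.79 and -4.09 to -3.39 in the other 7 livers. Results that rest on it are given without it as well, and the part of sex, brightness and cell make-up in the results was not tested. All 30 measured products of mature hepatocytes were above background in each of the 4 groups.

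Trp53 itself was -3.85, -3.72, -3.39 and -3.31 in livers of Trp53 wt mice and -6.46, -4.91, -5.91 and -5.01 in livers of Trp53 ko mice. It was -2.75, -2.73, -2.48, -2.65 and -2.65 in DEN tumours and -4.60, -4.96, -4.49, -5.35 and -4.13 in KO tumours. Knockout samples were thus the lower ones within each tissue, with no overlap between the genotypes, and Trp53 was no member of either set. Which exons were deleted, and so whether the probe lies in them, was not stated in the sources.

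In the limma fit of all 23590 genes tested, 4868 genes were higher in tumours than in livers (20.6%) and 5958 lower (25.3%) at an adjusted p of 0.05 (Benjamini-Hochberg), 45.9% in either direction. Of these, 3101 and 2900 differed at least 2-fold. The fit takes the mean of 2 contrasts, DEN tumour minus WT liver and KO tumour minus KO liver, and changes below are given as log2 change ± SE from it. DEN tumours alone had 2488 genes higher (10.5%) and 2574 lower (10.9%), and KO tumours 5078 higher (21.5%) and 6984 lower (29.6%). In both models 1289 genes rose (5.46%) and 1762 fell (7.47%). These were 51.8% and 68.5% of the genes called in DEN tumours and 25.4% and 25.2% of those called in KO tumours. With slide as a random block, fitted on single arrays, 197 and 76 genes were called in both models. Tumours of the same mouse counted there as separate samples. Single arrays without the block gave 1336 and 1798. With tumours averaged by mouse, a further 449 genes passed in both models with opposite signs, 303 of them higher in DEN tumours and lower in KO tumours. All separated genes passed the pooled contrast, but separation and contrast rest on the same values, so changes of members are given as descriptions without a test. In bulk tissue, fewer cells of a type and less RNA per cell cannot be told apart.

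**Figure D1:**
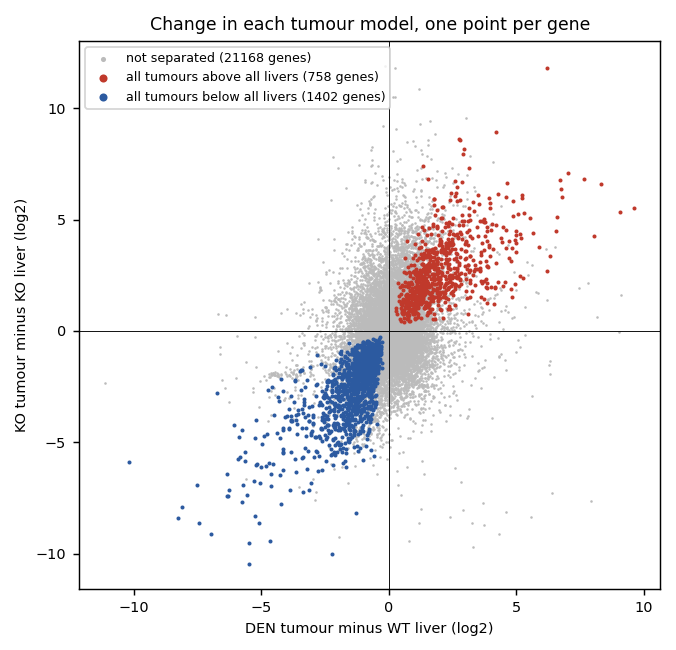
Each point is 1 of the 23328 genes with a value in every mouse; the horizontal axis gives the log2 change from WT liver to DEN tumour and the vertical axis that from KO liver to KO tumour. Genes above all livers in every tumour (red, 758) lie at the upper right and genes below all livers (blue, 1402) at the lower left, more of them further from 0 on the vertical than on the horizontal axis.

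The raised members had a median change of 2.15, made up of 1.78 in DEN and 2.37 in KO tumours. The lowered members had a median of -1.59, with -1.07 in DEN and -2.03 in KO tumours. The median over all genes was -0.07. At least 4-fold changes in both models were seen for 267 raised and 226 lowered members. The difference between the models, another contrast than that behind the rule, passed the test for 7282 of all genes (30.9%). Among members it passed for 230 raised genes, 193 of them with the larger change in KO tumours, and for 593 lowered genes, 584 of them larger in KO tumours. The same split of all genes was not counted, and over all genes too KO tumours had more calls than DEN tumours. Raised members were low in liver, with a median liver level of -2.51 against -1.88 for all genes, and lowered members high, at 2.64. For 97 raised members no liver array was above background, so that only a lower bound of their change can be given. Of the genes called in both models, 696 of 1289 raised (54.0%) and 1129 of 1762 lowered (64.1%) were also separated.

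The distance from liver differed between the models. The median distance of the raised genes from the mean of the livers was 1.58, 2.0, 1.62, 1.42 and 1.86 in DEN mice 1 to 5 and 2.70, 2.73, 2.46, 2.07 and 2.29 in KO tumour mice 1 to 5. For the lowered genes it was -1.03, -1.34, -1.21, -0.89 and -1.17 in the DEN mice and -2.10, -2.03, -2.07, -1.47 and -2.13 in the KO tumour mice. All 5 KO tumour mice lay further from liver than all 5 DEN mice in both sets. The tumour nearest to the livers was a DEN tumour for 70.4% of raised and 80.5% of lowered members, and DEN mouse 4 alone was nearest for 23.0% and 37.8%. In the 3 mice with 2 tumours, those of DEN mouse 4 differed by a median of 0.52 over the raised and 0.45 over the lowered genes, those of DEN mouse 5 by 0.60 and 0.48, and those of KO mouse 5 by 0.25 and 0.20. The paired tumours of both DEN mice lay on different slides and scan days, and those of KO mouse 5 on the same slide. With the 13 tumours taken singly, 613 and 1016 genes stayed separated.

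Other probes of the members gave a reading that the choice of members did not use, although from the same RNA. Of 250 other probes for raised members, 226 changed in the same direction and 96 were separated the same way (38.4%), against 2.65% of all such other probes. Of 584 for lowered members, 544 changed in the same direction and 236 were separated the same way (40.4%), against 5.26%. None of them was separated the opposite way. The share of all other probes that changed in either direction was not counted, so the counts by direction have no background beside them.

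Tspan8, a tetraspanin of epithelial and tumour cell surfaces (mm9, chr10:115286563-115286622), had the widest gap of all members. Its level was -3.41, -2.53, -4.12 and -4.10 in WT livers and -2.32, -2.56, -2.21 and -2.75 in KO livers. DEN tumours gave 6.00, 3.36, 5.97, 3.72 and 4.90 by mouse, KO tumours 4.43, 4.88, 4.00, 4.59 and 2.69. The lowest tumour lay 4.90 log2 units above the highest liver, and the change was 7.46 ± 0.39.

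Cpe, which encodes carboxypeptidase E, a processing enzyme of peptide hormones, read -1.70, 0.05, -2.09 and -2.10 in WT and -2.05, -2.89, -0.52 and -1.88 in KO livers. DEN tumours stood at 6.43, 6.65, 7.25, 4.00 and 6.61 and KO tumours at 4.70, 6.19, 4.39, 5.84 and 3.77, a change of 7.23 ± 0.48 with 3.73 between the groups. Both other Cpe probes rose as well, by 7.57 and 6.03. Neurl1a, a neuralized-type ubiquitin ligase, had the smallest SE of the 12 raised genes with the largest changes in both models. It read -2.41, -2.03, -1.29 and -1.97 in WT livers, -2.40, -2.05, -1.90 and -2.14 in KO livers, 3.60, 2.95, 3.54, 2.63 and 3.81 in DEN tumours and 4.63, 4.53, 3.95, 3.63 and 2.40 in KO tumours, and changed by 5.59 ± 0.27. The tumours of the 2 models overlapped, and the nearest liver was 3.69 away.

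Surface and secreted proteins known from fetal liver or liver tumours were among the leading genes. Ly6d, a small anchored surface protein, rose by 6.40 ± 0.38, and Golm1, a Golgi protein shed by liver tumours, by 4.38 ± 0.27. Lcn2, the secreted iron carrier lipocalin 2, rose by 5.52 ± 0.33, and more in DEN than in KO tumours (6.55 and 4.48; adjusted p of the difference 0.026). H19, an imprinted transcript of fetal liver, rose by 6.57 ± 0.96 on 1 probe, while its other probe read -0.03. The lowest DEN tumour stood 0.52 above the highest liver, and the remaining DEN tumours more than 4 log2 units higher than that. Of the 28 measured oncofetal and imprinted genes, 21 rose, 1 fell (Cdkn1c, -1.26) and 6 were separated (21.4% against 3.25% of all genes), namely H19, Mest, Ly6d, Golm1, Tspan8 and Lcn2, with a list median of 1.96. Without DEN mouse 3, 10 were separated. This list, like the others below, was drawn up with earlier results of these data known, so its share is a description and no test.

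Afp, the fetal counterpart of albumin, rose on average by 4.99 ± 0.49 (adjusted p 5.7e-07) but was not separated. It read -2.10, -2.09, 0.61 and -3.24 in WT and -1.56, -2.26, -1.66 and -2.02 in KO livers, 6.63, 4.97, 5.76, 5.72 and 7.50 in DEN and 0.16, 0.24, -1.07, 2.08 and 0.04 in KO tumours. KO tumours overlapped the livers, and the rise was larger in DEN tumours (adjusted p of the difference 0.00066). Igf2, a fetal growth factor whose transcript is made beside H19, did not pass (0.22 ± 0.64, adjusted p 0.8) and was above background on 8 of 13 tumour and 4 of 8 liver arrays.

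Krt20, an intermediate filament of intestinal epithelium, read 1.83, -1.81, 2.45, 0.51 and 0.69 in DEN and 6.71, 6.80, 6.09, 5.07 and 4.33 in KO tumours against -7.15, -3.15, -6.91 and -4.70 in WT and -5.39, -5.61, -5.60 and -7.39 in KO livers. KO tumours lay above all DEN tumours. Krt20 was above background on 2 of 4 WT and 0 of 4 KO livers, with a change of 6.21 in DEN and at least 3504-fold higher levels in KO tumours. Such a bound sets the tumour mean against the lowest signal well above background on each liver array, or the probe's own signal where that is higher. Inava, a regulator of epithelial junctions, was above background on 0 of 4 WT and 1 of 4 KO livers, at least 130-fold higher in DEN tumours and changed by 7.11 in KO tumours. Tmc5, a transmembrane channel-like protein, was above background on all 13 tumour arrays and on 0 of 8 liver arrays, at least 37.6-fold higher in tumours, although its other probe changed by only 0.34. Elovl7, an elongase of long-chain fatty acids, was likewise above background on 0 of 4 WT and 1 of 4 KO livers, at least 104-fold higher in DEN tumours and changed by 6.76 in KO tumours. Psat1, the aminotransferase of serine synthesis, changed by 5.67 ± 0.37. The X-linked gene Bex1 changed by 9.61 in DEN and 5.53 in KO tumours (adjusted p of the difference 0.03). It was above background on 1 of 4 WT and 3 of 4 KO livers, so the sizes of both changes and their difference rest partly on signal near background. The Bex1 neighbour Tceal5, above background on 0 of 8 liver arrays, was at least 530-fold higher in DEN and at least 40.5-fold higher in KO tumours. Among members outside the naming rule, chosen after their values were seen, the kinesin gene Kif5c was at least 256-fold higher in DEN and at least 19.3-fold higher in KO tumours, with 0 of 8 liver arrays above background. The immunoglobulin superfamily gene Igdcc4 changed by 6.60 in DEN tumours, with 1 of 4 WT livers above background, and was at least 34.2-fold higher in KO tumours, with 0 of 4 KO livers above background.

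**Figure D2:**
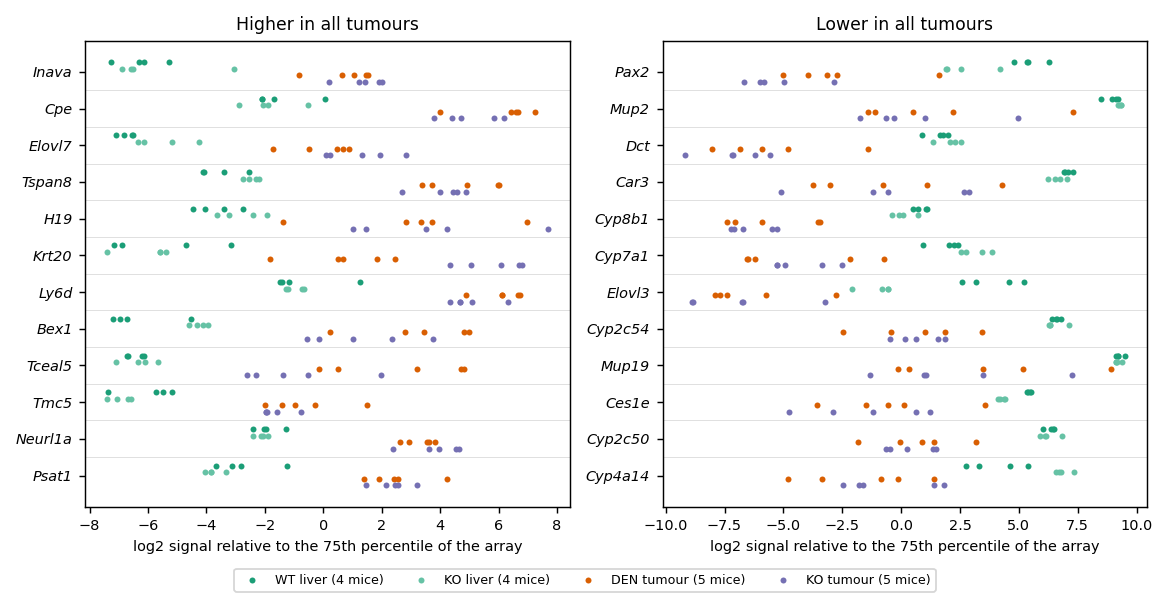
Levels of the 12 raised and 12 lowered genes with the largest change in the weaker model, 1 point per mouse, as log2 signal minus each array's 75th percentile. Rows give WT livers, KO livers, DEN tumours and KO tumours from top to bottom within a gene; tumours and livers do not overlap in any of the 24 genes, by the rule that chose them, with the widest gap in Tspan8 and narrow ones in Mup19 and Pax2.

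Adhesion molecules, annexins and S100 proteins had the largest separated share of the lists with raised members. Of 38 measured genes, 27 rose and 5 fell, with a median of 1.59, and 13 were separated upwards (34.2%), 7 with normexp before the 75th percentile. With slide as a random block or with normexp and quantile scaling 3 of the 38 fell, and with normexp before the 75th percentile 2. Anxa2, a calcium-dependent membrane-binding annexin (mm9, chr9:69339532-69339591), read 2.25, 2.79, 2.43 and 2.92 in WT livers and 3.06, 3.1, 3.25 and 3.09 in KO livers. DEN tumours read 6.16, 5.89, 6.47, 6.19 and 6.27 and KO tumours 6.97, 7.08, 6.93, 6.34 and 5.98. All 10 tumour mice lay within 2 log2 units of each other, 2.64 above the highest liver, and the change was 3.57 ± 0.16. Cd63, a tetraspanin of endosomes and vesicles, behaved likewise, with 2.11 to 3.23 in the 8 livers, 6.05 to 7.42 in the 10 tumour mice and a change of 3.92 ± 0.19. The difference between the models did not pass for Anxa2 (adjusted p 0.9) or Cd63 (0.75).

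The cadherin genes Cdh17 (at least 26.9-fold higher), of intestinal epithelium, and Cdh1 (3.55 ± 0.26), E-cadherin of epithelial junctions, were raised in every tumour mouse, as were the laminin receptor chains Itga6 (2.90 ± 0.27) and Itga3 (2.63 ± 0.25), the collagen receptor chain Itga2 (at least 3.86-fold higher) and the tetraspanin Cd9 (2.97 ± 0.25). Cdh17 and Itga2 were above background on 0 of 8 liver arrays. Further separated members were Anxa3, Anxa4, Anxa5, S100a6 and S100a11, and the S100a6 rise was larger in KO tumours (1.78 in DEN, 5.64 in KO; adjusted p of the difference 0.00082). A pair of members lay below all livers, Cdh2, the N-cadherin of hepatocytes (-1.37 ± 0.15), and S100a1 (-1.59 ± 0.16).

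Bile duct and progenitor markers rose in part. Of 28 measured, 23 rose and 3 fell (Cftr, Onecut1 and Aqp1), with a median of 2.54, and 7 were separated (25.0%). The median was 1.60 with normexp and quantile scaling and 1.40 with normexp before the 75th percentile, which left 3 separated. Sox9, a transcription factor of bile duct and progenitor cells, read 0.42, 0.45, 0.65, -0.49 and 0.50 in DEN and 1.76, 0.77, 2.17, 1.68 and 0.54 in KO tumours against -3.82 to -1.36 in the 8 livers. Every tumour lay above every liver, by 0.88 at least, and KO tumours were raised further (adjusted p of the difference 0.0026). The collagen receptor Ddr1 (3.87 ± 0.26), the secreted phosphoprotein Spp1 (4.15 ± 0.36), the junction protein Cldn7 (3.02 ± 0.48) and Krt8 (0.99 ± 0.18), a keratin that hepatocytes share, were also separated. The duct keratins Krt19 and Krt7 and the surface protein Epcam were not, with changes in DEN tumours of 0.48, 0.24 and 0.34 (adjusted p 0.81, 0.9 and 0.81). The mean level of the biliary list was -2.21 to -1.78 in WT livers, -2.18 to -1.75 in KO livers, -1.09 to -0.55 in DEN tumours and 0.0031 to 1.57 in KO tumours.

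Several cell cycle inhibitor genes were above all livers in every tumour mouse. Cdkn2b, an inhibitor of cyclin D kinases (mm9, chr4:88952276-88952335), read -2.47, -2.59, -3.52 and -3.11 in WT and -3.18, -2.73, -3.23 and -3.19 in KO livers, 1.96, 1.08, 3.31, 1.53 and 2.51 in DEN and 1.91, 1.85, 1.33, 0.59 and 0.35 in KO tumours. The gap was 2.82 and the change 4.64 ± 0.29, with the other probe at 4.99. The neighbouring inhibitor gene Cdkn2a changed by 3.84 ± 0.32, Cdkn3, a phosphatase acting on cyclin-dependent kinases, by 2.91 ± 0.39, and the pocket protein Rbl1 by 2.25 ± 0.25. Cdkn1a, the p53-induced inhibitor p21, read 0.80, 0.30, -0.31, -1.33 and -1.40 in DEN and -0.84, -1.38, -1.68, -2.60 and -1.61 in KO tumours against -5.68 to -4.50 in the livers. Its change was 4.43 in the model with wild-type Trp53 and 4.00 in the knockout, and the difference did not pass (adjusted p 0.6). Its other probes read 0.05 and 0.66, and the call ended with the median over probes (0.48). Of 36 cyclins, kinases and their regulators, 23 rose and 2 fell, with a median of 1.14 and 5 separated (13.9%), 10 without WT liver 4 and 2 with normexp before the 75th percentile.

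Of 38 mitosis and spindle genes, 32 rose (median 2.39) but only Pbk, a mitotic kinase (above background on 3 of 4 WT and 0 of 4 KO livers), was separated (2.63%, against 3.25% of all genes). That count rested on WT liver 4, without which 13 of the 38 were separated (34.2%, against 4.35% of all genes), among them Mki67, Top2a, Plk1 and Aurka. The median was 1.02 in DEN and 3.57 in KO tumours, and the difference between the models passed for 27 of the 38. The pooled median was 1.06 with normexp and quantile scaling and 1.18 with normexp before the 75th percentile, where 22 rose and 0 were separated. Mki67, a marker of dividing cells, rose by 2.92 ± 0.41 (adjusted p 1.8e-05), with 1.11 in DEN (adjusted p 0.19) and 4.73 in KO tumours, and its DEN tumours overlapped WT liver 4 (0.51), whereas the other 7 livers lay at or below -2.11. Of 38 DNA replication genes, 19 rose and 5 fell, with a median of 0.51 and 5.26% separated upwards (5 genes in place of 2 without WT liver 4). With slide as a random block, and with normexp before the 75th percentile, 3 fell, and in the latter 0 were below all livers. The helicase subunit Mcm2 (2.51 ± 0.20) and the flap nuclease Fen1 (1.28 ± 0.15) lay above all livers. Mcm10 (-3.72 ± 0.37), a replication initiation factor, and Tk1 (-1.56 ± 0.22), thymidine kinase, were among those below all livers.

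Of the 28 measured p53 targets 4 were separated (14.3%). Besides Cdkn1a these were the death receptor Tnfrsf10b (3.45 ± 0.24), Phlda3 (3.04 ± 0.30), an Akt inhibitor, and Btg2 (2.88 ± 0.32), an antiproliferative protein. In KO tumours, from Trp53 ko mice, Tnfrsf10b changed by 3.91 and Phlda3 by 2.97. Of the list, 11 rose and 5 fell (7 and 2 with slide as a random block, 8 and 2 with normexp before the 75th percentile, which left 2 separated), with a median of 0.23, and Mdm2, the feedback inhibitor of p53, did not pass (0.04, adjusted p 0.86).

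Of 28 targets of ERK, Notch and YAP signalling, 18 rose and 3 fell (Notch1, Phlda1 and Amotl2), with a median of 1.22, and 7 were separated (25.0%). With normexp before the 75th percentile the median was 0.81 and 2 were separated. The ERK phosphatase Dusp4 changed by 3.14 ± 0.33, at 3.02 in DEN and 3.26 in KO tumours. The ETS factors Etv4 (3.27 ± 0.32) and Etv5 (1.76 ± 0.17) and the inhibitor Spry1 (1.35 ± 0.16) followed, with the larger Etv4 change in KO (adjusted p of the difference 0.0023) and the larger Spry1 change in DEN tumours (0.0019). The Notch target Nrarp (at least 5.64-fold higher, above background on 0 of 8 liver arrays), the receptor Notch3 (1.65 ± 0.22) and the YAP pathway scaffold Ajuba (2.27 ± 0.15) were also above all livers.

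Matrix and stellate cell genes rose (27 of 34, 1 fell, median 1.76), and 5 were separated (14.7%), 0 with normexp before the 75th percentile. They were the basement membrane chains Col4a1 (3.0 ± 0.30) and Col4a2 (2.84 ± 0.33), the matricellular protein Thbs1 (4.36 ± 0.38), the protease inhibitor Timp1 (5.56 ± 0.42) and the cytokine Tgfb1 (1.44 ± 0.20). Timp1 changed by 2.94 in DEN and 8.18 in KO tumours (adjusted p of the difference 0.00043). The fibrillar collagen Col1a1, at 1.73 in DEN tumours, was not separated, and Acta2, of stellate cells and smooth muscle, missed separation narrowly. Without DEN mouse 3, 8 of the 34 were separated. The mean list level was -1.38 to -0.60 in WT livers, -0.97 to -0.77 in KO livers, -1.26 to 1.27 in DEN tumours and 1.21 to 2.30 in KO tumours. DEN tumours thus overlapped the livers for the list as a whole.

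Immune cell lists other than that of macrophages held few separated genes. Over all genes 20.6% were higher, 25.3% lower and 3.25% above all livers. Among 21 macrophage genes 11 rose and 4 fell (median 0.96), and C1qb, Fcgr1, Gpnmb and the monocyte chemokine receptor Ccr2 were separated (19%), 1 with normexp before the 75th percentile. Gpnmb and Ccr2 were above background on 1 and 2 of 4 WT livers, with changes of 4.26 and 2.0 in DEN tumours. On the KO livers neither was above background, and they were at least 67.9-fold and 15.4-fold higher in KO tumours. The macrophage list mean ran from -0.59 to 0.12 in the livers, -1.06 to 0.87 in DEN and -0.59 to 2.47 in KO tumours. Of 14 neutrophil genes 8 rose (median 1.40), and the collagenase Mmp8, above background on 0 of 8 liver arrays and at least 5.92-fold higher, was the only separated one (7.14%). The neutrophil list had 5 risen (median 0.47) with normexp and quantile scaling, 1 (median 0.35) with normexp before the 75th percentile, which left 0 separated, 3 with slide as a random block and 4 of 9 (median 0.92) among probes above background on at least 13 arrays. Of 20 T and NK cell genes 13 rose and 1 fell (median 1.14), and of 12 B and plasma cell genes 1 rose (median 0.48), without a separated member. The T and NK cell median was 0.55 with normexp and quantile scaling and 0.47 with normexp before the 75th percentile, and 6 rose in the latter and with slide as a random block. The B and plasma cell median ran from 0.19 with normexp and quantile scaling to 0.79 without KO tumour mice 1 and 2. Without WT liver 4, 6 B cell genes rose and 2 T and NK cell genes were separated. Every marker of these lists was above background on some tumour array of each model. Cd163 of the macrophage list and Ngp, Ltf, Cxcr2, Mmp8 and Stfa2l1 of the neutrophil list were not above background in any liver. Not every member of the T and NK cell list was above background in a liver either. Interferon and MHC genes rose in part (17 of 28, 2 fell, median 0.76), with Oas1a (2.34 ± 0.21), Ifit2 (2.11 ± 0.28) and Mx1 (2.33 ± 0.33) above all livers. Of the 28, 10 rose with slide as a random block, and 10 with scan day as a block, which set tumours against KO livers only.

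In 22 endothelial genes 6 rose and 9 fell (2 and 3 with slide as a random block), beside 20.6% of all genes higher and 25.3% lower. The median of 0.07 turned to -0.08 with normexp before the 75th percentile and to -0.18 with the median over probes. Cd34, of capillary endothelium and progenitor cells, was separated (3.23 ± 0.29), which made 4.55% of the list against 3.25% of all genes. Erythroid genes were lower for 3 of 7 measured, Klf1 in every tumour mouse (-3.30 ± 0.38), and the list median was 1.44 in DEN and -3.29 in KO tumours. The pooled erythroid median of -0.91 was -0.49 with normexp and quantile scaling. It was -1.83, with 5 lower, with scan day as a block, a fit of tumours against KO livers only. The mean erythroid level was 0.04 to 0.95 in WT livers and 0.26 to 2.04 in KO livers. Of 11 pancreatic acinar genes 1 rose and 4 fell (median -0.53, and -0.16 with normexp and quantile scaling), among them Amy2a5 (-2.49 ± 0.35) below all livers.

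**Figure D3:**
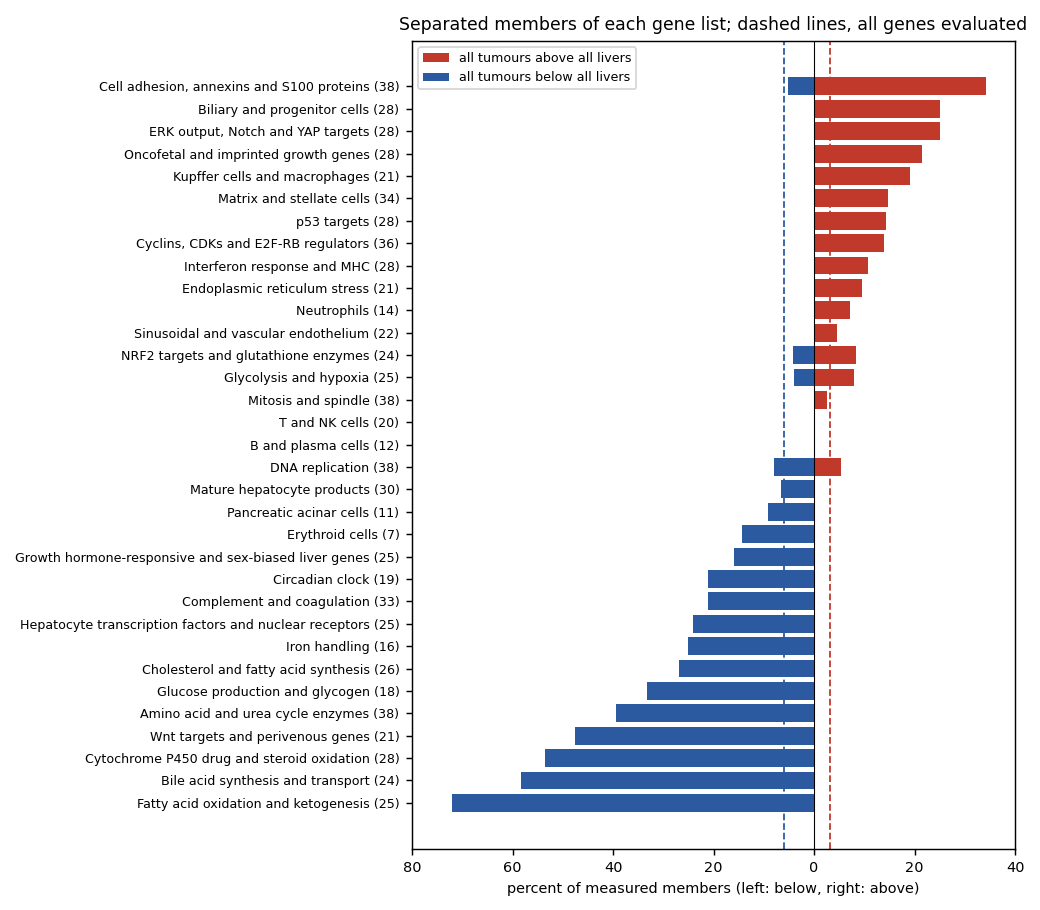
Percent of the measured members of each of 33 gene lists that lay above (red, right) or below (blue, left) all 8 livers in every tumour, with the number measured in brackets; dashed lines mark the shares of all genes, 3.25% and 6.01%. Fatty acid oxidation, bile acid and cytochrome P450 genes extend furthest to the left and adhesion genes furthest to the right, and T and NK cell and B and plasma cell genes have no bar.

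On the lowered side, bile acid synthesis fell in nearly all its steps. Cyp8b1, the sterol 12-alpha-hydroxylase that sets the balance of bile acid species, read 0.51, 1.06, 0.73 and 1.10 in WT and -0.10, 0.08, 0.73 and -0.37 in KO livers. DEN tumours read -5.93, -7.07, -7.41, -3.45 and -3.53 and KO tumours -7.21, -7.12, -5.46, -6.73 and -5.29. The highest tumour lay 3.08 below the lowest liver, and the change was -6.39 ± 0.51, with -6.33 in DEN and -6.45 in KO tumours. Cyp8b1 was above background on 6 of 13 tumour arrays, so part of its range in tumours is near the detection limit.

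Cyp7a1, the rate-limiting enzyme of bile acid synthesis, changed by -6.86 ± 0.74, from 0.91 to 3.86 in the livers to -6.53 to -0.71 in the tumours. Cyp27a1, which starts the alternative route, changed by -3.47 ± 0.33, at -3.18 in DEN and -3.76 in KO tumours. The uptake carriers Slco1b2 (-4.82 ± 0.60) and Slco1a4 (-4.55 ± 0.46), the export pump Abcb11 (-2.97 ± 0.46), the conjugating enzymes Baat (-2.87 ± 0.39) and Slc27a5 (-2.78 ± 0.29) and the bile acid receptor Nr1h4 (-2.80 ± 0.32) were all below liver in every tumour mouse. Of 24 measured genes 23 fell, with a median of -2.72, and 14 were separated (58.3% against 6.01% of all genes), and 3 with normexp before the 75th percentile. The sodium-dependent carrier Slc10a1 was the one that did not pass (-0.31, adjusted p 0.25). The cholesterol transporters Abcg5 and Abcg8 fell on the mean of the models but changed by 0.41 and -0.22 in DEN tumours (adjusted p 0.77 and 0.88).

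Promoters of 4 members are shown, a lowered pair from the bile acid pathway and a raised pair, because both pairs stood apart from liver in every tumour mouse, in opposite directions. They are the 250 bases before the annotated start, from RefSeq (GRCm38.p6), written 5′ to 3′ on the strand of the gene: Cyp8b1 at chr9:121916306-121916555 on the minus strand, Nr1h4 at chr10:89506659-89506908 on the minus strand, Anxa2 at chr9:69453433-69453682 and Neurl1a at chr19:47178570-47178819 on the plus strand. Capitals mark letters of the motifs searched, in either orientation.
Cyp8b1: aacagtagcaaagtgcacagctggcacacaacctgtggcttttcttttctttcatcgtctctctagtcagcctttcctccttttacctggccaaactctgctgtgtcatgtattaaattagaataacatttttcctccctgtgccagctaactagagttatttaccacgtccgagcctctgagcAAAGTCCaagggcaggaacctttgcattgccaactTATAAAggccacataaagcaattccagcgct
Nr1h4: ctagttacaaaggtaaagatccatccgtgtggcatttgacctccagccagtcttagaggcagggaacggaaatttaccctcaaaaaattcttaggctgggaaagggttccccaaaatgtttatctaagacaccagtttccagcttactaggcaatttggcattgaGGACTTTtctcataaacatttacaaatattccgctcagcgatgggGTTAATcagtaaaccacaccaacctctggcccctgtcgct
Anxa2: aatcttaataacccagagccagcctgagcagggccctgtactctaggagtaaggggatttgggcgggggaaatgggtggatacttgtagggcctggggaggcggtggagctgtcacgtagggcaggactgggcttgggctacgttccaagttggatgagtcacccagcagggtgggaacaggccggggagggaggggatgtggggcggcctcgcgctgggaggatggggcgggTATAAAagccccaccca
Neurl1a: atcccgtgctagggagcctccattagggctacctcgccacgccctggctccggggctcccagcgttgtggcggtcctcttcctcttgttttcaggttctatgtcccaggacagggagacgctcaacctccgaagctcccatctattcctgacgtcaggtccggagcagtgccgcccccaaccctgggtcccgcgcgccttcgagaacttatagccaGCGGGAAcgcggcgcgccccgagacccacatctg
The capitals are AAAGTCC, core letters of an HNF4 site, at -66 in Cyp8b1 and at -85 in Nr1h4, and GTTAAT, core letters of an HNF1 site, at -40 in Nr1h4. They are TATAAA at -31 in Cyp8b1 and at -17 in Anxa2, and an E2F site (TTCCCGC or TTCGCGC or TTGCCGC or TTGGCGC) at -34 in Neurl1a, each position being that of the match before the start. Over all members with a promoter in the table, the shares with a match lay within a few percentage points of those of all promoters. The HNF4 letters were in 4.69% of 1045 lowered, 5.66% of 530 raised and 3.94% of 14188 promoters of all genes tested. The HNF1 letters were in 4.59%, 4.34% and 5.08%, the E2F letters in 11.5%, 12.1% and 11.6%, and TATAAA in 7.75%, 7.17% and 9.50%. The CCAAT box was in 38.7% of lowered, 30.8% of raised and 35.9% of all promoters, the cell cycle homology letters TTTGAA in 10.3%, 9.62% and 12.4%, and the STAT5 letters TTCNNNGAA in 6.41%, 7.55% and 6.37%. Letters of different motifs may overlap, and a match is no evidence of binding.

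Cytochromes P450 that oxidise drugs and steroids had the lowest median of the 33 lists (27 of 28 fell, median -3.04), and 15 were separated (53.6%), 6 with normexp before the 75th percentile. Cyp2c50 read 6.44, 6.04, 6.35 and 6.51 in WT and 6.14, 6.11, 5.90 and 6.83 in KO livers, 0.86, -0.06, -1.83, 3.19 and 1.39 in DEN and -0.66, -0.47, 1.46, 0.26 and 1.34 in KO tumours, a change of -5.74 ± 0.50. Livers lay within 1 log2 unit of each other, while the tumours of each model spread over more than 2. Its relatives Cyp2c54 (-5.84 ± 0.58) and Cyp2c37 (-5.55 ± 0.43) behaved alike, but genes of this family are so similar that their probes may share signal, which holds for the Cyp4a and Mup families too. Cyp1a2 (-5.18 ± 0.56), Cyp2f2 (-5.31 ± 0.90), Cyp2j5 (-5.04 ± 0.65), Cyp3a11 (-3.02 ± 0.50) and Cyp4a14 (-6.47 ± 0.79), the last a target of the fatty acid sensor PPAR alpha, were also below all livers. Cyp2b9 did not pass on the mean of the models, with 3.69 in DEN and -7.73 in KO tumours.

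Fatty acid oxidation had the largest separated share of all 33 lists, 18 of 25 genes (72.0%), with 24 lower and a median of -1.90. Acaa1a, a peroxisomal thiolase, read 7.03, 6.84, 6.62 and 6.60 in WT and 7.07, 6.84, 7.02 and 7.17 in KO livers. DEN tumours read 5.45, 4.94, 4.86, 5.88 and 5.53 and KO tumours 4.36, 4.78, 4.66, 5.01 and 4.54. The gap was 0.71 and the change -1.90 ± 0.15, and the tumours of the models overlapped. Its relative Acaa1b (-3.88 ± 0.34), the carnitine enzyme Cpt2 (-2.15 ± 0.22) and the carnitine carrier Slc25a20 (-1.87 ± 0.19) were below liver in every tumour mouse. So were the dehydrogenases Acadm (-1.73 ± 0.20) and Acadvl (-1.73 ± 0.15) and both subunits of the trifunctional protein, Hadha (-0.91 ± 0.17) and Hadhb (-1.17 ± 0.14).

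Ppara, the nuclear receptor that drives this pathway, changed by -3.10 ± 0.47, at -1.46 in DEN and -4.75 in KO tumours. Cpt1a, the entry enzyme of the mitochondrial pathway, fell (-1.22 ± 0.21, adjusted p 0.00013) but overlapped the livers. Crat, carnitine acetyltransferase, moved in opposite directions, with 1.46 in DEN and -1.65 in KO tumours (adjusted p of the difference 0.00014). The list median was -1.34 in DEN and -2.46 in KO tumours, and the difference between the models passed for 14 of the 25. With slide as a random block 23 of the 25 were still lower, and within the scan day that held DEN tumours, KO tumours and KO livers 24. With the 75th percentile after normexp correction 20 were lower and none was separated.

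**Figure D4:**
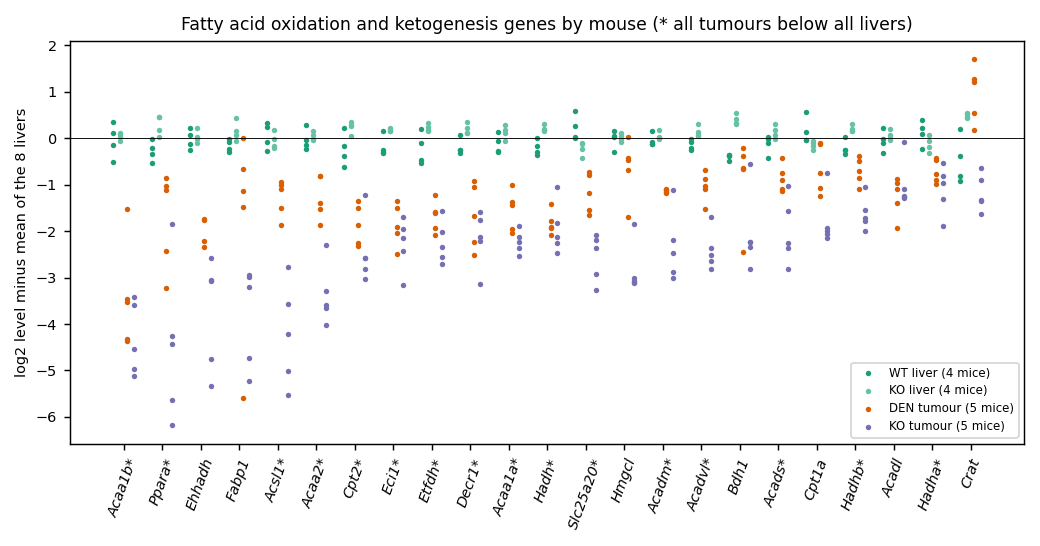
Log2 level of 23 fatty acid oxidation and ketogenesis genes in each mouse, minus the mean of the 8 livers; an asterisk marks the 16 genes with every tumour below every liver. Liver points lie around 0, DEN tumours below them and KO tumours lower still for most genes, and for Crat 3 of the 5 DEN tumours lie above all livers; Ehhadh lacked a value in 1 mouse and was not evaluated for separation.

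Amino acid and urea cycle enzymes fell (37 of 38, median -2.71), with 15 separated (39.5%; 23 without DEN mouse 2 and 0 with normexp before the 75th percentile), although the median was -0.88 in DEN and -4.59 in KO tumours and the difference passed for 37 of 38. Hpd, an enzyme of tyrosine breakdown, changed by -4.11 ± 0.35, at -2.18 in DEN and -6.04 in KO tumours, and Dmgdh, of choline breakdown, by -3.79 ± 0.35. Glucose production and glycogen genes fell (15 of 18, 1 rose, median -2.03), and 6 were separated (33.3%), among them the glycogen phosphorylase Pygl (-2.28 ± 0.24) and the glucose transporter Slc2a2 (-3.50 ± 0.55). Pygl changed by -0.74 in DEN and -3.83 in KO tumours. Cholesterol and fatty acid synthesis was lower for 23 of 26 genes and higher for 1 (median -1.41), and 7 were separated (26.9%; 3 with the 13 tumours taken singly), among them the carboxylase Acacb (-2.74 ± 0.21), the synthase Fasn (-2.48 ± 0.21), the desaturase Scd1 (-2.69 ± 0.42) and the lipogenic regulator Thrsp (-4.55 ± 0.44). With normexp before the 75th percentile 0 of the glucose and 0 of the lipid synthesis genes were separated.

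Genes of the perivenous zone and targets of Wnt signalling were mostly lower in both models, with list medians of -1.81 in DEN and -2.42 in KO tumours. Of 21 measured, 14 fell and 3 rose (Myc, Ccnd1 and Lef1), with an overall median of -2.33, and 10 were separated (47.6%), 6 with the 13 tumours taken singly and 2 with normexp before the 75th percentile. Glul, the glutamine synthetase of the hepatocytes next to the central vein, read 4.53, 4.42, 4.22 and 4.78 in WT and 5.22, 5.25, 5.12 and 5.46 in KO livers. It read 0.36, -1.06, -1.72, 2.59 and 0.67 in DEN and 2.12, 2.18, 2.46, 1.89 and 2.85 in KO tumours, a change of -3.64 ± 0.41 with a gap of 1.37. The ethanol-oxidising Cyp2e1 (-4.59 ± 0.64), the glutamate carrier Slc1a2 (-4.77 ± 0.61), the Wnt co-receptor Lgr5 (-3.57 ± 0.66), the Wnt feedback genes Rnf43 (-2.08 ± 0.22) and Nkd1 (-2.42 ± 0.32) and the T-box factor Tbx3 (-4.15 ± 0.68) were likewise below liver in every tumour mouse. Axin2, another feedback gene, fell in both models (-2.48 and -2.18) without being separated. The difference between the models passed for 5 of the 21, against 30.9% of all genes.

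Transcription factors of the hepatocyte also fell (22 of 25, 1 rose, median -1.41), and 6 were separated (24.0%), namely Cebpa (-1.93 ± 0.23), Nr1i3 (-3.53 ± 0.37), the drug sensor CAR, Nr1h4, Ppara, Creb3l3 and Tbx3. The median was -0.93 with normexp and quantile scaling, and 1 was separated with normexp before the 75th percentile. Of 19 circadian clock genes 11 fell and 1 rose (median -1.18), and 4 were separated (21.1%), among them the output factors Dbp (-3.23 ± 0.69), Tef (-2.45 ± 0.42) and Hlf (-2.87 ± 0.39). The clock median was -0.58 with normexp and quantile scaling and -0.70 with normexp before the 75th percentile, which left 1 separated, and 6 fell with slide as a random block. The hour at which tissue was taken was not stated.

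Growth hormone-responsive and sex-biased genes fell in 21 of 25 (1 rose, median -2.89), and 4 were separated (16%), the receptor Ghr (-2.97 ± 0.35), the growth factor Igf1 (-2.90 ± 0.32), its carrier subunit Igfals (-2.89 ± 0.39) and the elongase Elovl3 (-8.03 ± 0.79). With tumours and livers fitted as 2 groups 12 fell. With the 13 tumours taken singly 1 was separated, and with normexp before the 75th percentile 0. Elovl3 read 5.23, 4.57, 2.58 and 3.16 in WT and -0.81, -2.07, -0.57 and -0.54 in KO livers, -7.91, -7.41, -7.67, -2.76 and -5.76 in DEN and -8.82, -8.88, -3.25, -6.71 and -6.74 in KO tumours. Livers of the 2 genotypes did not overlap, and Elovl3 was above background on 4 of 13 tumour arrays. The major urinary protein genes Mup2 (-8.04 ± 1.03) and Mup19 (-6.31 ± 1.16), which are more abundant in male liver, ranged over more than 6 log2 units among tumours, -1.74 to 7.29 and -1.33 to 8.91, against 8.49 to 9.34 and 9.12 to 9.52 in the livers. Without KO tumour mice 1 and 2, which lacked Y-linked signal, 810 and 1495 genes were separated in all. Leaving out mice can only add separated genes, so these counts do not measure the part of sex. Dct (-8.04 ± 0.69) and Car3, a carbonic anhydrase (-7.20 ± 1.08), were also among the genes that fell furthest, and Ces1e, a carboxylesterase, changed by -5.74 ± 0.84. Pax2 (-8.01 ± 0.73) reached this group on 1 probe only, since its other probes read 0.15 and -0.11. Outside the naming rule, and chosen after their values were seen, the leucine-rich repeat genes Lrit2 and Lrtm1 were at least 48.6-fold and 391-fold lower in KO tumours, with 0 of 6 KO tumour arrays above background. In DEN tumours they changed by -5.02 and -5.09, with 1 and 6 of 7 arrays above background.

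Secreted liver proteins differed between the models. Of 30 mature hepatocyte products 28 fell on the mean of the models (median -1.49), yet the median was -0.13 in DEN and -2.91 in KO tumours, the difference passed for 28, and only Apoa2 (-1.97 ± 0.33) and Cyp2e1 were separated (6.67%, against 6.01% of all genes), and 4 without WT liver 3. With normexp and quantile scaling 17 of the 30 fell (median -0.83), with normexp before the 75th percentile 14, with 0 separated, and with tumours and livers fitted as 2 groups 18. Albumin (Alb) read 9.51, 8.83, 9.37, 9.32 and 9.56 in DEN and 5.04, 7.03, 7.13, 8.46 and 7.43 in KO tumours against 9.29 to 10.17 in the livers. DEN tumours overlapped the livers (-0.26 ± 0.44, adjusted p 0.74), while the KO tumours fell by 2.94 (adjusted p 3.5e-05). The mean level of the hepatocyte list was 7.74 to 7.78 in WT livers, 7.81 to 7.89 in KO livers, 7.21 to 7.65 in DEN tumours and 3.62 to 6.05 in KO tumours. Complement and coagulation genes followed a like course (29 of 33 fell, median -1.45, -0.24 in DEN and -2.81 in KO), with 7 separated (21.2%; 4 with the 13 tumours taken singly), among them the mannose-binding lectins Mbl1 (-2.0 in DEN, -3.05 in KO) and Mbl2 (-1.30 and -8.17). With normexp before the 75th percentile 15 of the 33 fell and 0 were separated. Iron-handling genes fell in 11 of 16 (2 rose, median -0.78, 25.0% separated), 7 with normexp and quantile scaling (median -0.43) and 6 with slide as a random block or with normexp before the 75th percentile, which left 2 separated. The hepcidin gene Hamp2 changed by -2.22 in DEN and -10.02 in KO tumours, each against its own livers (adjusted p of the difference 5.5e-05). Single tumours read -0.96, 0.0095, -1.24 and -2.60 in DEN mice 4 and 5 and -2.31 and -2.53 in KO mouse 5. In these mice the tumour levels lay much closer together than the changes, so the difference is also one between WT and KO livers.

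**Figure D5:**
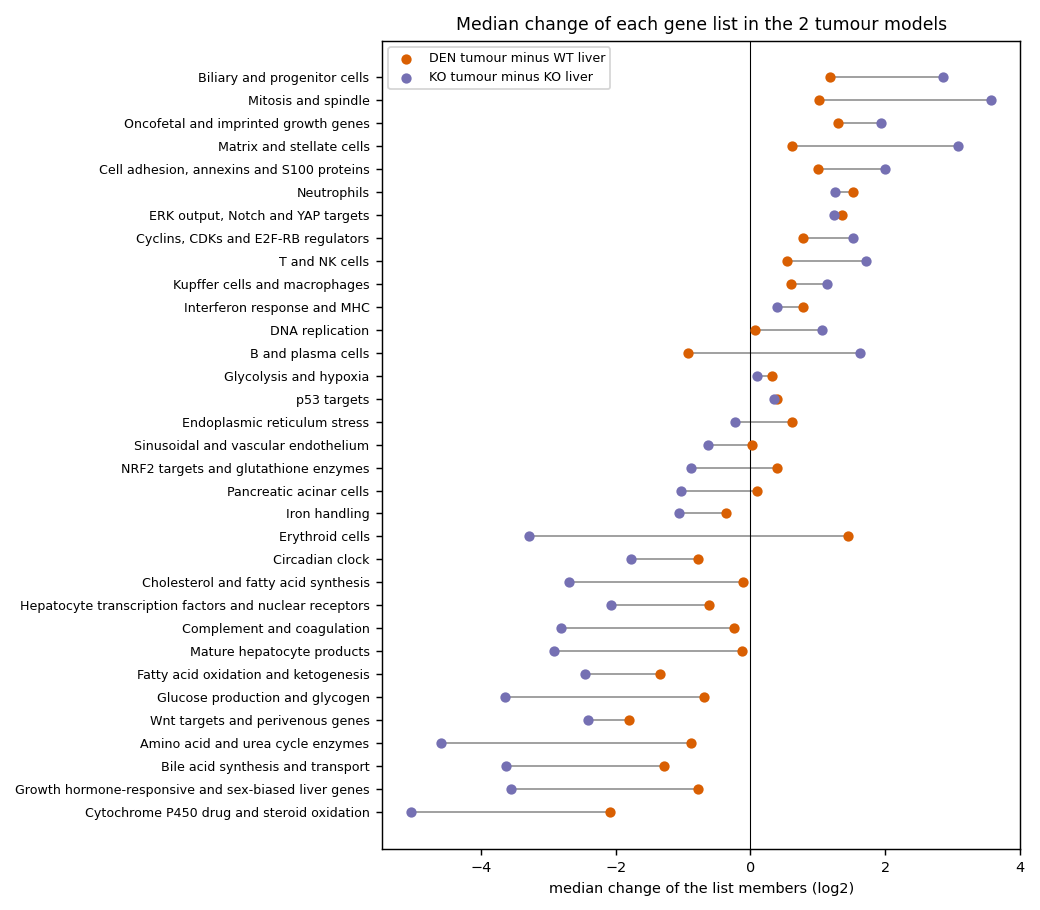
Median log2 change of the measured members of each list in DEN tumours (orange) and KO tumours (purple), joined by a line. Fatty acid oxidation and the Wnt and perivenous list lie below 0 in both models with short lines, whereas mature hepatocyte products and complement and coagulation lie near 0 in DEN tumours and below -2 in KO tumours.

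The remaining lists moved in both directions, as did all genes, of which 20.6% were higher and 25.3% lower. Glycolysis and hypoxia genes rose in 12 of 25 and fell in 5 (median 0.47), 8 without DEN mouse 2, with the glucose transporter Slc2a1 (1.48 ± 0.23) and the lactate exporter Slc16a3 (2.96 ± 0.31) above all livers and the kinase Pdk1 (-2.35 ± 0.19), an inhibitor of pyruvate oxidation, below. Without WT liver 4, 5 of the list were above all livers. With slide as a random block 7 rose and 2 fell, with normexp before the 75th percentile 0 were separated, and the median over probes gave a list median of 0.83. Of 24 NRF2 targets and glutathione enzymes 6 rose and 8 fell, and the median of -0.25 turned to 0.12 with normexp and quantile scaling and to 0.014 with normexp before the 75th percentile. In these settings 4 and 2 fell, and 3 with slide as a random block. Cbr3, a carbonyl reductase (4.82 ± 0.40), and G6pdx (2.30 ± 0.21), which feeds the pentose phosphate pathway, were above all livers, and the glutathione transferase Gsta3 (-2.50 ± 0.28) below. Of 21 endoplasmic reticulum stress genes 7 rose and 2 fell (median 0.20), and the stress sensor Eif2ak3 (0.90 ± 0.14) and the factor Atf3 (2.66 ± 0.32) were separated (9.52%). With normexp and quantile scaling 14 of them rose (median 0.52), and with normexp before the 75th percentile 0 were separated.

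Members close to the limit of separation had small gaps but not always small changes. Just inside were Acvrl1 (0.91) among raised and Aldh1l1 (-2.33) among lowered genes, and just outside, both on the raised side, Cstb (1.31) and Acta2 (2.03). The Cstb call ended with slide as a random block (1.22, adjusted p 0.053). Gaps of at least 1 log2 unit were found for 147 raised and 137 lowered members, and the median gap was 0.42 and 0.29. Separated genes were spread over the chromosomes, from 1.34% of the genes on chromosome 12 to 5.07% on chromosome 3 for raised members, and from 3.96% on chromosome X to 8.26% on chromosome 9 for lowered members.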

How the data were processed

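RNA of each tumour or liver was hybridised to 1 single-colour Agilent array, read with Agilent Feature Extraction 10.7.3.1 per the submitters' processing notes. The deposited scanner files hold background-subtracted processed intensity, mean and background intensity and spot flags, per the file headers, and the authors' deposited table holds log2 values that served as an alternative. Processed signals were set to log2 minus the 75th percentile of the array. Control and outlier spots were left out, spots of a probe averaged, and probes kept when well above background on at least 4 arrays (30482 probes, 23590 genes, 1 probe per gene, that with the highest mean; other probes are given where they differ). Of 39429 probes, 26761 were named through their accession and 4376 through their symbol in a RefSeq table, and 8198 kept the file's name. Probe coordinates are mm9 as in the files, promoters RefSeq GRCm38.p6.

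Tumours of 1 mouse were averaged (10 tumour mice, 8 livers) and fitted in limma 3.58.1 (R 4.3.3) as 4 groups, with Benjamini-Hochberg adjustment at 0.05; tables and figures used Python 3.11.15, pandas 2.3.3 and matplotlib 3.10.9. On simulated data of 23590 genes the fit recovered 54% of 100 genes changed by 1 log2 unit and 92% of 100 changed by 2, with 10 false calls. The simulation used independent noise, with the same spread in every group, no slide effect and 200 changed genes. Its false calls therefore do not measure error that comes with slides. The number of arrays limits the precision. Alternatives covered background correction, scaling, filters, slide and scan day blocks and leaving out mice. The slide and scan day blocks were fitted on single arrays, the latter for tumours against KO livers only. In these fits tumours of the same mouse counted as separate samples.

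Named were the 12 raised and 12 lowered separated genes with the largest smaller change of the 2 models (detected on all arrays of the higher side), up to 2 separated members of the leading direction and 1 of the other from each of 33 lists by adjusted p, 6 fixed genes (Trp53, Alb, Afp, Mki67, Glul and Igf2) and the genes nearest to the limit of separation. Further list members were named after their values were seen, and a few genes counted in the lists are not reported by name here. Members and lists were chosen with earlier results of these data known. The labels do not say whether samples of a group were raised apart.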

Additional observations from a re-analysis of the deposited data

Results flagged for a closer look

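In 356 groups of 4 or 5 mice (89 named genes in 4 groups), 21 had 1 mouse further from the rest than Dixon's limit at the 95% level (5.9%), about as many as the 5% that chance alone gives. DEN tumour mouse 2 read 8.28 for Apoa2, below the 8.94 to 9.18 of its group, and 0.53 for Pdk1, above the -0.57 to -0.32 of its group. It also read -1.24 for Ifit2, above the -2.57 to -2.20 of its group. DEN tumour mouse 4 read 4.00 for Cpe, below the 6.43 to 7.25 of its group, and -0.49 for Sox9, below the 0.42 to 0.65 of its group. DEN tumour mouse 5 read 1.78 for Igf1, below the 3.73 to 4.53 of its group, and 0.065 for Amy2a5, below the 1.26 to 1.56 of its group. It also read 4.94 for Tfr2, below the 5.53 to 5.69 of its group. KO liver 2 read -2.73 for Cdkn2b, above the -3.23 to -3.18 of its group. KO liver 3 read 9.38 for Mup19, above the 9.12 to 9.16 of its group, and 0.009 for Hlf, below the 0.25 to 0.27 of its group. It also read -3.88 for Atf3, below the -1.78 to -1.42 of its group. KO liver 4 read -3.06 for Inava, above the -6.88 to -6.50 of its group, and -7.39 for Krt20, below the -5.61 to -5.39 of its group. It also read 7.12 for Cyp2c54, above the 6.27 to 6.33 of its group, and 6.63 for Hpd, above the 6.42 to 6.45 of its group. WT liver 1 read -7.14 for Pbk, below the -4.43 to -4.01 of its group, and -5.66 for Ifit2, below the -4.16 to -4.04 of its group. WT liver 2 read 5.31 for Acacb, above the 4.95 to 4.98 of its group. WT liver 4 read 1.27 for Ly6d, above the -1.47 to -1.18 of its group, and 2.35 for Cyp27a1, below the 2.80 to 2.85 of its group.

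The change in KO tumours minus that in DEN tumours passed the test of the difference for 32 of the 89 named genes (limma, threshold 0.05 adjusted over all genes), against 30.9% of all genes. Each change was taken from livers of the same genotype, so a difference may lie in the livers as well as in the tumours. Genes that fell further in KO tumours included Hamp2 by -7.80 (DEN -2.22, KO -10.02), Mbl2 by -6.87 (DEN -1.30, KO -8.17) and Hpd by -3.86 (DEN -2.18, KO -6.04). Less wide were Nr1i3 by -3.46 (DEN -1.80, KO -5.26), Aldh1l1 by -3.17 (DEN -0.74, KO -3.91) and Pygl by -3.09 (DEN -0.74, KO -3.83). Then came Dmgdh by -3.05 (DEN -2.27, KO -5.32), Amy2a5 by -2.93 (DEN -1.03, KO -3.96) and Apoa2 by -2.90 (DEN -0.52, KO -3.42). Next were Alb by -2.68 (DEN -0.26, KO -2.94), Hlf by -2.48 (DEN -1.63, KO -4.11) and Gsta3 by -2.43 (DEN -1.29, KO -3.72). After these came Tfr2 by -2.15 (DEN -0.70, KO -2.84) and Fasn by -1.66 (DEN -1.65, KO -3.31). Last were Acacb by -1.27 (DEN -2.10, KO -3.37), Acaa1a by -0.91 (DEN -1.44, KO -2.35) and Foxo1 by -0.89 (DEN -0.56, KO -1.45). Genes that rose further in KO tumours were Mcm2 by 1.85 (DEN 1.58, KO 3.43), Ajuba by 1.87 (DEN 1.34, KO 3.21) and Ccr2 by 1.94 (DEN 2.0, KO 3.94). Wider were Sox9 by 2.48 (DEN 2.20, KO 4.68), Etv4 by 3.04 (DEN 1.75, KO 4.79) and Slc16a3 by 3.15 (DEN 1.38, KO 4.53). Wider still were Pbk by 3.47 (DEN 2.10, KO 5.57), Mki67 by 3.62 (DEN 1.11, KO 4.73) and Timp1 by 5.23 (DEN 2.94, KO 8.18). The value for Krt20 was 5.59 (DEN 6.21, KO 11.80). For Ccr2, Pbk and Krt20 0 of 4 KO livers were above background, so that only a bound holds in KO tumours, at least 15.4-fold, 46.9-fold and 3504-fold higher. Genes that rose further in DEN tumours were Afp by -5.66 (DEN 7.82, KO 2.16), Bex1 by -4.08 (DEN 9.61, KO 5.53) and Oas1a by -1.69 (DEN 3.19, KO 1.5). Bex1 was above background on 1 of 4 WT livers and 3 of 4 KO livers, so its difference rests partly on signal near background. The fall was larger in DEN tumours for Elovl3 by 4.31 (DEN -10.19, KO -5.88). For Elovl3 all WT livers lay above all KO livers, whereas the tumours of the models overlapped. Most tumour arrays were not above background for Elovl3, so the sizes of both falls rest partly on signal near background.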

How the results depend on the processing

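Members were chosen by separation on these same arrays, so their passing in other fits of the arrays is no independent check. Of the 758 raised and 1402 lowered genes, 757 and 1376 passed with normexp and quantile scaling and 741 and 1376 with slide as a random block. Within the 1 scan day that held 3 DEN tumour, 3 KO tumour and 4 KO liver arrays, 751 and 1380 of them passed. With normexp (offset 50) before the 75th percentile 555 and 1133 passed and 213 and 151 stayed separated. In that setting 2025 genes were higher and 2592 lower, 253 and 181 in both models, and 241 and 163 were separated; the offset is added before arrays of unequal brightness are scaled, and the cause was not tested. Slide as a random block, fitted on single arrays, gave 2564 higher and 3405 lower, and 197 and 76 in both models. Without the filter on dim probes 9957 were lower. Within the 1 scan day, with fewer samples on each side, 2534 and 3362 genes were separated. Leaving out 1 mouse at a time, a setting in which separation can only be gained, gave 767 to 1015 and 1408 to 1552 separated genes, 4438 to 5205 higher and 5535 to 6291 lower genes, and 982 to 1454 and 1262 to 2034 in both models. Pax2 turned to 0.15 with the median over probes and Trp53 to -0.039 with normexp before the 75th percentile. The Alb call ended with normexp and quantile scaling (-0.73), that of Cdkn1a with the median over probes (0.48), and those of Ifit2 (0.86) and Mmp8 (0.49) with normexp before the 75th percentile. Slide as a random block ended the calls of Cstb (1.22) and Trp53 (0.93), and the fit of 2 groups that of Trp53 (0.89). Chosen after the data were seen, leaving out KO tumour mice 1 and 2 gave 4691 higher and 5880 lower genes, 1251 and 1807 in both models. No paired analysis was possible because no label links a tumour to a liver. Scan day as a block could not be fitted for the genes called in both models, since the WT livers shared no scan day with tumours. Signal near background limits the size of change of raised genes, and the number of arrays limits the precision.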
